A study of Mus musculus with 4 samples.

Results

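Peaks of the methyltransferase subunits KMT9alpha and KMT9beta and of H4K12me1, monomethylation of histone H4 at lysine 12, were examined at the promoters and in the bodies of 10 nucleotide synthesis genes of the mouse, out of 21853 protein-coding genes of the GENCODE M21 annotation. The genes were chosen by name for their place in the pathways: Ppat, Gart and Impdh2 make purines, Cad, Dhodh, Umps and Ctps make pyrimidines, and Rrm1, Rrm2 and Tyms supply the building blocks of DNA. The data come from chromatin immunoprecipitation with sequencing (ChIP-seq) in organoids, which are epithelial cultures grown in 3 dimensions, derived from a colorectal tumour that azoxymethane and dextran sulfate sodium had induced in a mouse. All libraries were from 1 line, clone 3 at passage 14, with the genotype entered as NA. The labels mention tamoxifen at 1 µM and vehicle without tying either to a library, so no treatment was compared. Each antibody had 1 library, so none of the values has a replicate check and no p-value is given; the input library was not analysed here. Peak lists hold no expression values, so the tissue label was not checked against marker genes.

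Purine and pyrimidine rings are built from amino acids, bicarbonate and one-carbon units carried by folate, and ribonucleotide reductase turns the resulting ribonucleotides into deoxyribonucleotides for DNA synthesis. Dividing cells such as those of the intestinal crypt and its tumours depend on these routes, and thymidylate synthase, the product of Tyms, is the target of fluorouracil, a standard drug against colorectal cancer. KMT9 is a histone methyltransferase made of a catalytic subunit, KMT9alpha, and a partner, KMT9beta, and its known histone product is H4K12me1. A promoter here is the stretch within 1 kb of a start of any annotated protein-coding transcript, and a gene-body peak overlaps the gene without touching such a stretch.

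All 10 genes had a KMT9alpha peak at the promoter, against 54.2% of protein-coding genes. KMT9beta was called at 9 of the 10 promoters, against 65.1% of protein-coding genes, and H4K12me1 at 8 of 10, against 44.9%. Promoter peaks of all 3 libraries were found at 8 genes, namely Gart, Impdh2, Cad, Dhodh, Umps, Ctps, Rrm2 and Tyms, against 35.5% of protein-coding genes. Ppat had both subunits without the mark, a state of 15.5% of protein-coding genes. Rrm1 had KMT9alpha alone, a state of 2.59%.

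Promoters rich in CpG dinucleotides carried more peaks in these lists, and the 10 genes had a middle to high CpG content. Protein-coding genes were divided into 5 equal classes by the observed to expected CpG ratio within 500 bp of the most upstream coding start. The members fell into the upper 3 classes, with 3 in the third, 2 in the fourth and 5 in the fifth. With the protein-coding genes weighted to these classes, the shares with a promoter peak were 82.3% for KMT9alpha, 89.2% for KMT9beta and 63.1% for H4K12me1, and the share with all 3 was 55.5%. The counts of 10, 9 and 8 of 10 thus lie nearer to genes of like promoters than to all genes, and with 10 genes the exact 95% interval of 8 of 10 runs from 44.4% to 97.5%, counting error only. The state of Rrm1 was found at 2.92% of genes so weighted and that of Ppat at 23.2%. In the fifth class, which holds both Rrm1 and Ppat, the shares were 1.46% and 24.3%.

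The promoter sequences of 5 members are shown: Rrm1, the member with KMT9alpha alone, its partner Rrm2, and Cad, Gart and Tyms, which carried all 3 libraries. They are RefSeq sequences of GRCm38.p6, the assembly behind mm10, read along the gene's own strand toward the start and trimmed to hold no annotated untranslated bases. Rrm1 is chr7:102441445-102441694 on the plus strand, Rrm2 is chr12:24708004-24708240 on the plus strand, Cad is chr5:31054624-31054779 on the plus strand, Gart is chr16:91646973-91647222 on the minus strand and Tyms is chr5:30073626-30073875 on the minus strand. Capitals mark matches to the searched motifs on either strand, so that CCGCCC is the GC box read from the other strand.
Rrm1: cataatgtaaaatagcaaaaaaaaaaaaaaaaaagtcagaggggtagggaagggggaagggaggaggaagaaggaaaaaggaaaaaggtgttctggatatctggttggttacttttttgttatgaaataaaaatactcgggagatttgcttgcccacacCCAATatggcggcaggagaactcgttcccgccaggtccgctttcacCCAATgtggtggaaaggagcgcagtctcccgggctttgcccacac
Rrm2: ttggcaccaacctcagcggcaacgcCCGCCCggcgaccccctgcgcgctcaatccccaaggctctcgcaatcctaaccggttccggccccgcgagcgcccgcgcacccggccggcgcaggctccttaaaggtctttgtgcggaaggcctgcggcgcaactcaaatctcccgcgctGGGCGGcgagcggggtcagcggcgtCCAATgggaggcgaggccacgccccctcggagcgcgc
Cad: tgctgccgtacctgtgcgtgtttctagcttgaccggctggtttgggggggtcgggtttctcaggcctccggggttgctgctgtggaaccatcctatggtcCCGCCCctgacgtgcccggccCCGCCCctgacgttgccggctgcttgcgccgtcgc
Gart: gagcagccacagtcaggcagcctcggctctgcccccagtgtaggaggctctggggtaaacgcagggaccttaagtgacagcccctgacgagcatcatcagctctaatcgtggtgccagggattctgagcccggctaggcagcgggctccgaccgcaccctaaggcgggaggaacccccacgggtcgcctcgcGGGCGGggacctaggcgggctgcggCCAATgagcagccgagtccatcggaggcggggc
Tyms: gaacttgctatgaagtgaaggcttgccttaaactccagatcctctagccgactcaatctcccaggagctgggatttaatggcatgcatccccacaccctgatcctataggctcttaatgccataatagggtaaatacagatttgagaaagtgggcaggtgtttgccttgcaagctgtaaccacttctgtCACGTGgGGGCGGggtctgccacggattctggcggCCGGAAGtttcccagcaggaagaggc
Rrm1 had 47% G and C and 9 CpGs in its RefSeq window of 300 bases, from 250 before the start to 50 after it. The window of Rrm2 had 71.3% G and C and 40 CpGs, and that of Tyms, which carried all 3 libraries, had 53% and 9 CpGs like Rrm1. Over the wider 500 bp flanks, however, the CpG ratio of Rrm1 was 0.844 and in the fifth class, above the 0.802 of Rrm2 in the fourth.

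RefSeq windows of 300 bases were matched for 9 of the 10 genes, all but Dhodh, and searched on both strands. The GC box GGGCGG was present in 8 of these 9 windows, against 35.7% of all 32851 windows in the table, and Rrm1 was the 1 window without a match. Rrm1 held instead 2 matches to CCAAT, at 91 and 45 bases before the start. CCAAT was found in 4 of the 9 windows (Rrm1, Rrm2, Impdh2 and Gart), against 37.4% of all windows. The E-box CACGTG, the core bound by MYC family factors among others, was found in Tyms and Impdh2, 2 of 9 against 7.15%. The ETS motif CCGGAAG was found in Tyms, Ppat and Gart, 3 of 9 against 8.86%. Of the 3 E2F spellings searched, TTTCCCGC occurred in Ppat only, at 2 places, 1 of which overlaps a GC box, against 1.07% of all windows. The spellings TTTCGCGC and TTTGGCGC occurred in none of the 9, against 0.323% and 0.514%. The windows of the table were not matched to the members' CpG classes, so the shares do not allow for base content. A match describes letters in the window and is no evidence of binding.

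**Figure D1:**
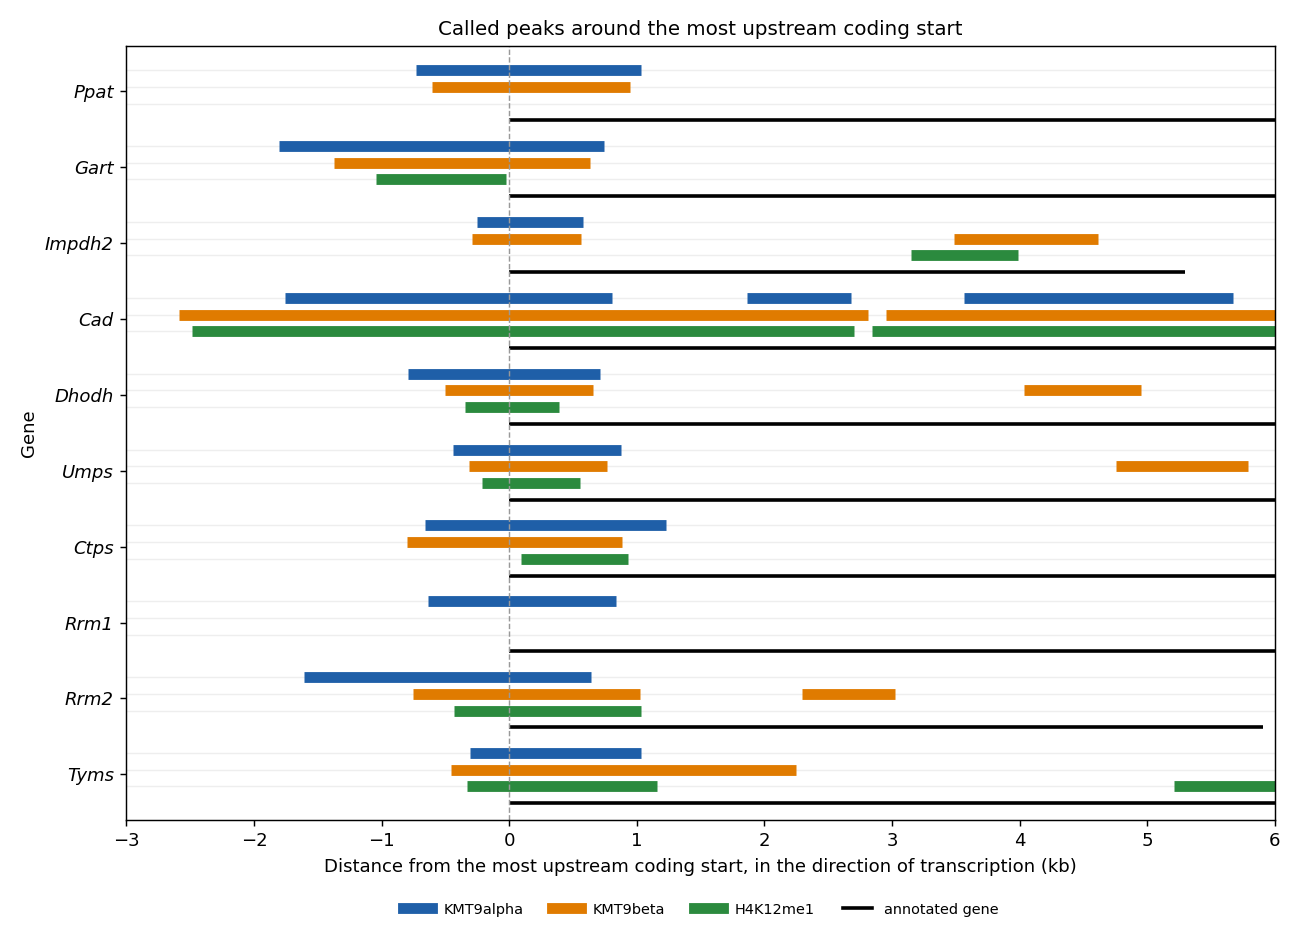
Called peaks of KMT9alpha, KMT9beta and H4K12me1 (coloured bars, 1 row per library) at the 10 genes, by distance in kb from the most upstream coding start in the direction of transcription; the black line is the annotated gene. A KMT9alpha peak lies across the start of all 10 genes, Rrm1 has no bar of the other libraries, Ppat has no H4K12me1 bar, and the H4K12me1 bar of Impdh2 lies away from its start.

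At the promoters the highest subunit peaks lay over the most upstream coding start, and those of H4K12me1 did so less often. The highest KMT9alpha peak covered the most upstream coding start of 10 of 10 genes and the highest KMT9beta peak that of 9 of 9, with median midpoints 128 and 134 bp downstream of it. The highest H4K12me1 peak covered that start at 5 of 8 genes, the exceptions being Gart, Impdh2 and Ctps. Its midpoints lay 24 to 23148 bp downstream, with a median of 358 bp. The highest promoter peaks were 833 to 2563 bp wide for KMT9alpha (median 1637), 857 to 5396 bp for KMT9beta (median 1682) and 738 to 5191 bp for H4K12me1 (median 1018). The widest KMT9beta and H4K12me1 peaks were those of Cad. Of the members' 12 KMT9alpha promoter peaks 10 overlapped a KMT9beta peak and 9 an H4K12me1 peak by 1 bp or more. Of their 10 H4K12me1 promoter peaks 9 overlapped KMT9alpha and 9 KMT9beta. These counts include wide peaks at an internal start of Cad. The same shares over the promoter peaks of all genes were not computed, so the overlaps cannot be called particular to the members.

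Peak scores were compared only within a list, because the deposited score has no stated meaning and its scale differs between lists. Among protein-coding genes with a promoter peak, the median of the highest promoter score was 2647 for KMT9alpha, 206 for KMT9beta and 104 for H4K12me1. The members' median percentile among these genes was 47.2 for KMT9alpha (10 genes), 44.9 for KMT9beta (9 genes) and 60.7 for H4K12me1 (8 genes). Their scores thus lay near the middle of those of other genes with a promoter peak. By width, the median percentiles were 68.6, 62.3 and 69.3.

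**Figure D2:**
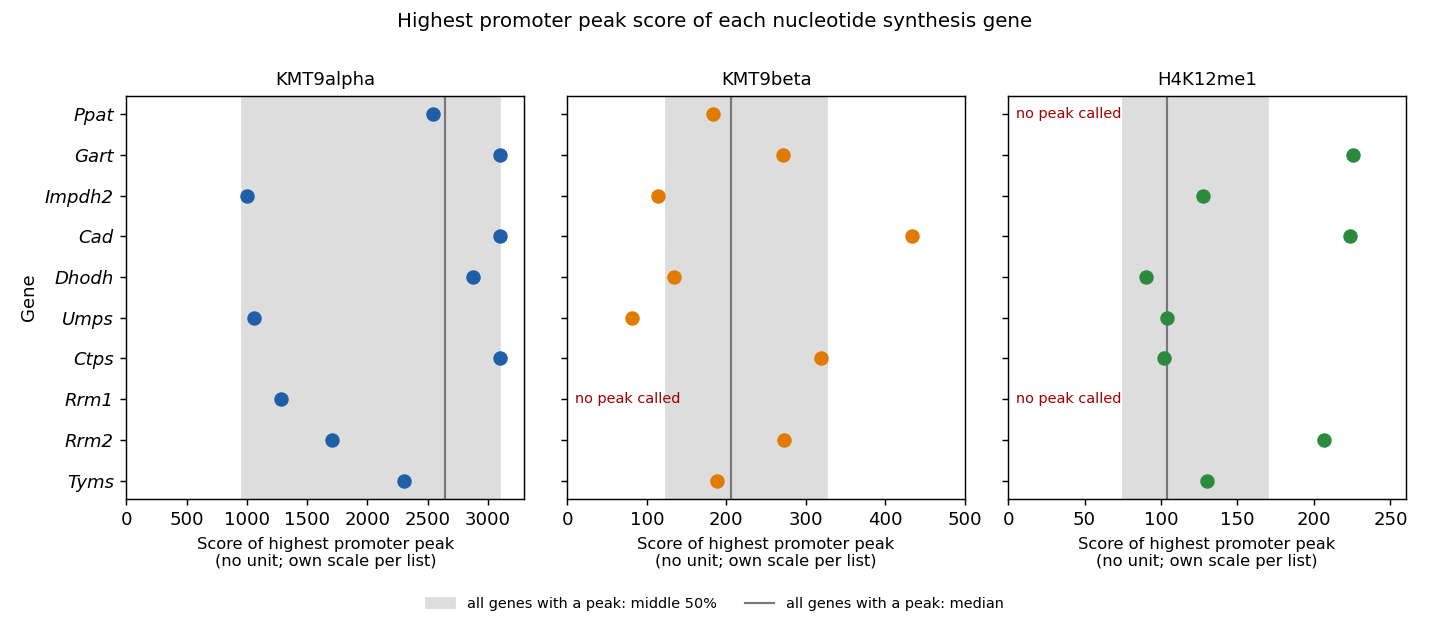
Score of the highest promoter peak of each of the 10 genes (points), with 1 panel and 1 scale per library; the grey band spans the middle 50% and the grey line the median of all protein-coding genes with a promoter peak in that list. Cad, Gart and Ctps sit at 3100 in the KMT9alpha panel, Cad is highest in the KMT9beta panel, and Gart, Cad and Rrm2 lie beyond the band in the H4K12me1 panel.

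Gene positions are those of GENCODE M21 on mm10. Among the purine genes, Ppat (chr5:76913249-76951578, minus strand) encodes the amidotransferase that commits phosphoribosyl pyrophosphate to the pathway. Its promoter on chromosome 5 lies back to back with that of Paics, another purine gene, and the same peaks touch both, so the genes cannot be told apart there. The KMT9alpha peak was 1764 bp wide with a score of 2542 (percentile 48.7), and the KMT9beta peak 1549 bp wide with a score of 183 (percentile 43.2). Both scores were below the medians of 2647 and 206 over genes with a promoter peak, and no H4K12me1 peak was called within 12 kb of the start. Inside the gene, however, Ppat carried 5 H4K12me1 peaks, all in introns between 12059 and 18683 bp from the start, with scores of 66.0 to 139.5. Of these 5, 4 overlapped a KMT9beta peak and none overlapped KMT9alpha.

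Gart (chr16:91621186-91646952, minus strand) encodes an enzyme with 3 activities that acts at several steps of purine ring assembly. Its KMT9alpha promoter peak was 2543 bp wide and at the 3100 that 45.6% of genes with a KMT9alpha promoter peak reached or passed, and its KMT9beta peak scored 272 (percentile 65.7). The H4K12me1 peak beside them scored 161 and ended 24 bp before the most upstream start, on the side of Son, a splicing factor gene whose promoter the same 3 peaks touch. A further set of overlapping peaks lay 22516 to 24285 bp downstream at internal coding starts of Gart. There the KMT9alpha and KMT9beta scores were only 179.8 and 90.3, while the H4K12me1 score of 226 was the highest of the gene (percentile 86.8).

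Impdh2 (chr9:108560286-108565584, plus strand) encodes the inosine monophosphate dehydrogenase that limits guanine nucleotide synthesis. KMT9alpha (score 1002, percentile 25.9) and KMT9beta (score 114, percentile 21.8) overlapped at the start, and both were the narrowest of the members' highest promoter peaks in their list. The H4K12me1 peak (score 127, percentile 60.3) lay 3150 to 3990 bp downstream, within 1 kb of an internal coding start, where it overlapped another KMT9beta peak (score 92.7) and no KMT9alpha peak. Impdh2 is therefore counted with all 3 libraries only when every annotated coding start is used. With all 3 required at the same start, 7 members qualified, against 34.6% of protein-coding genes.

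Among the pyrimidine genes, Cad had the highest promoter score of the 10 in the KMT9beta list. Cad (chr5:31054780-31078479, plus strand) encodes the 3 joined activities that open pyrimidine synthesis and has long served as a target gene in studies of MYC. Its promoter scores were 3100 for KMT9alpha, 434 for KMT9beta (percentile 87) and 224 for H4K12me1 (percentile 86.4). Dhodh (chr8:109591343-109608673, minus strand) encodes the mitochondrial dihydroorotate dehydrogenase, and its overlapping promoter peaks scored 2877, 133.8 and 90.0 (percentiles 52.2, 28.3 and 40.6). Umps (chr16:33954782-33967038, minus strand) encodes the enzyme that completes uridine monophosphate, and its overlapping promoter peaks scored 1062, 80.8 and 104 (percentiles 27, 10.5 and 49.9). The KMT9beta peak of Umps was the lowest of the members' highest promoter peaks in that list. Ctps (chr4:120539868-120570276, minus strand) encodes the CTP synthase, and its promoter peaks scored 3100, 319 and 102 (percentiles 76.5, 74.1 and 48.8). The H4K12me1 peak of Ctps lay 94 to 929 bp downstream of the start, within the stretch of the KMT9alpha peak. The promoter peaks of the 3 libraries thus overlapped one another at all 4 pyrimidine genes, with KMT9alpha scores from 1062 to 3100.

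The genes of ribonucleotide reductase differed. Rrm1 (chr7:102441695-102469771, plus strand) encodes the large, catalytic subunit, and its only called peak was KMT9alpha over the start, 1479 bp wide with a score of 1283 (percentile 30.8). No KMT9beta peak lay nearer than 5.29 kb upstream (score 100.5), and the nearest H4K12me1 peak lay 68.3 kb downstream (score 64.9). The 28077 bp of the gene held no other peak of any list. Rrm2 (chr12:24708241-24714146, plus strand) encodes the small, radical-bearing subunit, and its promoter carried overlapping peaks of all 3 libraries with scores of 1703 for KMT9alpha (percentile 37.7), 272 for KMT9beta (percentile 65.7) and 207 for H4K12me1 (percentile 83.5). The KMT9alpha percentiles of both subunits were thus close, 30.8 for Rrm1 and 37.7 for Rrm2, while the other libraries were called at Rrm2 and not at Rrm1. Library depth is unknown, and no call therefore means no peak at or above the lowest deposited score, 50, and not that the protein or mark is absent. Tyms (chr5:30058202-30073617, minus strand), the gene of thymidylate synthase, had overlapping promoter peaks with scores of 2301, 189 and 129.8 (percentiles 45.8, 44.9 and 61.2).

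Within the gene bodies, KMT9alpha peaks were found in 4 of the 10 genes (Cad, Dhodh, Ppat and Tyms), against 19.8% of protein-coding genes. KMT9beta peaks were found in 8 of 10, all but Rrm1 and Impdh2, against 49.5%. H4K12me1 peaks were found in 4 of 10 (Cad, Dhodh, Ppat and Tyms), against 41.0%. Since long genes have more room, the members were also set beside the 11160 protein-coding genes within their range of length, 5299 to 38330 bp. Gene-body peaks were found in 16.9% of these genes for KMT9alpha, 49.6% for KMT9beta and 39.9% for H4K12me1. With protein-coding genes weighted to the members' CpG classes, the shares were 24.1%, 59.7% and 49.5%. All 10 members together held 10, 14 and 11 gene-body peaks of KMT9alpha, KMT9beta and H4K12me1. The mean for a single gene of the length range was 0.246, 1.3 and 0.863. Of the 10 KMT9alpha peaks, 7 were in Cad, and with only peaks at or above the median score of the list 1 member, Cad, kept a KMT9alpha gene-body peak, against 6.54% of protein-coding genes. In the same setting KMT9beta gene-body peaks were left in 5 members, against 34.0%.

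**Figure D3:**
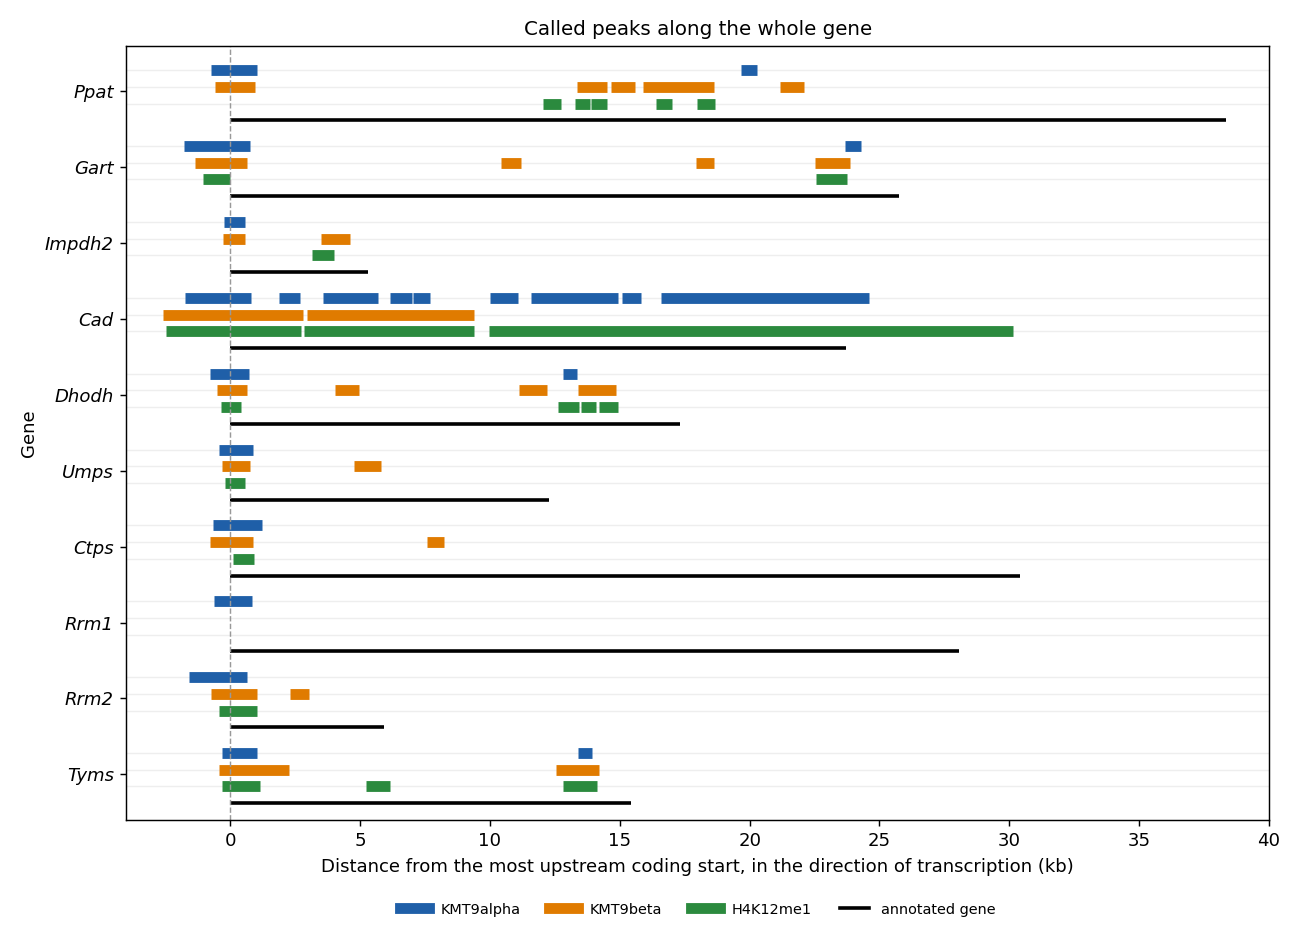
Called peaks of the 3 libraries (coloured bars) along the whole of each of the 10 genes, by distance in kb from the most upstream coding start in the direction of transcription; the black line is the annotated gene. Cad is covered by KMT9alpha and H4K12me1 to beyond its end, Dhodh, Ppat and Tyms have clusters of peaks inside the gene, and Rrm1 has none.

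Cad stood apart from the other members in its gene body. KMT9alpha peaks covered 73.6% of its 23700 bp, KMT9beta 39.0% and H4K12me1 96.9%, against medians of 3.01%, 7.67% and 2.54% over genes of the length range. The gene-body peak with the highest KMT9beta score among the members, 1456, was 6439 bp wide and lay 2954 to 9392 bp downstream of the start of Cad. An H4K12me1 peak of 6533 bp with a score of 915 lay over the same stretch, and both stood at percentile 99.9 of all peaks of their list. Further along, an H4K12me1 peak of 20168 bp (score 112) ran from 9962 to 30129 bp, past the end of the gene, and a KMT9alpha peak of 7996 bp (score 359) ran from 16605 to 24600 bp. Both touch an internal coding start and so count among the promoter peaks of Cad. Only 2 H4K12me1 peaks and 3 KMT9alpha peaks in the lists were as wide or wider, these peaks included.

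High coverage by KMT9alpha and H4K12me1 was shared with neighbours of Cad. The gene lies in a stretch at 3 to 33 Mb of chromosome 5 that holds 7.7% of all KMT9alpha peaks, 2.18% of KMT9beta peaks and 3.77% of H4K12me1 peaks. Among the 98 genes of the length range there, the median gene was covered to 23.4% by KMT9alpha, 26.3% by KMT9beta and 35.1% by H4K12me1, against 2.97%, 7.61% and 2.48% in the 11062 such genes elsewhere. Of the 14 genes covered by KMT9alpha as much as Cad, Cad included, 12 lay in the stretch, and for H4K12me1 14 of 14 did. For KMT9beta, 1638 genes were covered as much as Cad, and 1598 of them lay elsewhere. The copy number of the stretch was not analysed here. Tyms lies in the same stretch, and its coverage of 10.3%, 25.3% and 22.0% was below the medians of the stretch and above those elsewhere. Without the genes of the stretch 8 members were left, of which KMT9alpha marked 8, KMT9beta 7, H4K12me1 6 and all 3 marked 6. Over the protein-coding genes left, the shares were 54.0%, 65.0%, 44.6% and 35.1%.

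Groups of peaks also lay inside Dhodh, Ppat and Tyms. Dhodh held 1 KMT9alpha, 1 KMT9beta and 3 H4K12me1 peaks between 12605 and 14917 bp from its start, with scores of 197.7, 134.1 and 67.1 to 139, and the KMT9alpha and KMT9beta peaks there did not overlap each other. Another 2 KMT9beta peaks of Dhodh began 4037 and 11132 bp from the start and overlapped no other library. Tyms had overlapping peaks of all 3 libraries between 12555 and 14208 bp, with midpoints in an annotated untranslated region, and scores of 92.8, 108.8 and 104, and an H4K12me1 peak by itself nearer the start (score 95.8). In Gart (2 peaks) and in Umps, Ctps and Rrm2 (1 peak each) the gene-body peaks were of KMT9beta only, with scores of 55.8 to 142. Over all 10 genes, 5 of the 14 KMT9beta gene-body peaks overlapped H4K12me1 and 2 overlapped KMT9alpha. The same shares over the gene-body peaks of all genes were not computed.

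The rest of the pathways gave a similar order of the libraries. A list of 38 further genes of purine synthesis, pyrimidine nucleotides, deoxynucleotide supply, folate one-carbon supply and salvage had a KMT9alpha promoter peak at 37, a KMT9beta peak at 32 and an H4K12me1 peak at 22, against the 54.2%, 65.1% and 44.9% of all protein-coding genes. All 3 libraries marked 20 of the 38, against 35.5%, both subunits without the mark 11, against 15.5%, and KMT9alpha alone 4, against 2.59%. Of the 4 with KMT9alpha alone, 3 lie on the X chromosome. There this state was found at 23.7% of protein-coding genes, against 1.63% on autosomes. With the protein-coding genes weighted to the CpG classes of these 38 genes, the shares were 74.2% for KMT9alpha, 83.1% for KMT9beta, 56.8% for H4K12me1 and 47.4% for all 3. The list itself had 97.4%, 84.2%, 57.9% and 52.6%, so that its KMT9beta and H4K12me1 shares lay close to those of genes of like promoters. By role, all 3 were found at 4 of 10 purine genes, 2 of 4 pyrimidine genes, 1 of 5 deoxynucleotide genes, 4 of 7 folate genes and 9 of 12 salvage genes. The 12 salvage genes, which recycle bases and nucleosides, all had both subunits, which 51% of protein-coding genes had, and 70% with those genes weighted to the CpG classes of the salvage genes.

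**Figure D4:**
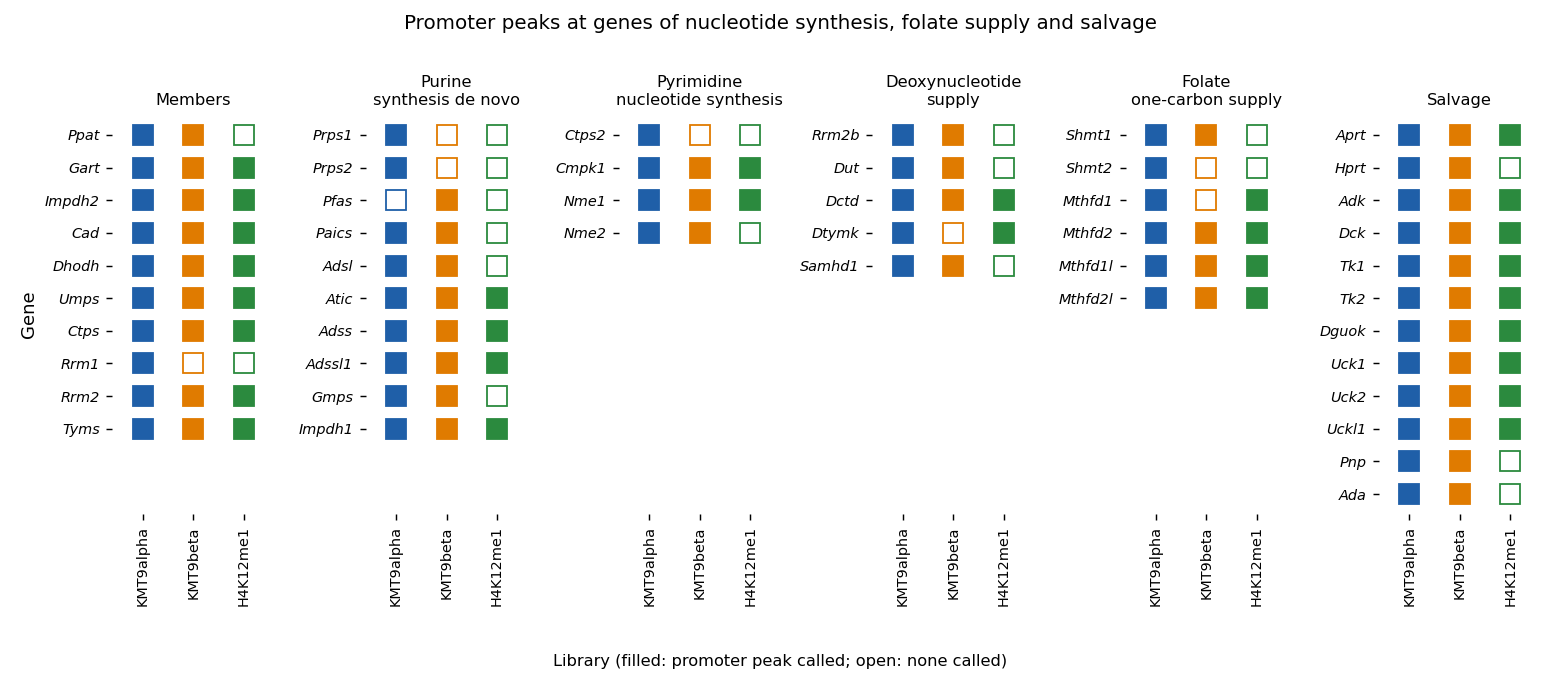
Promoter peaks of KMT9alpha, KMT9beta and H4K12me1 (columns) at the 10 members and 37 of the further genes (rows), grouped by role; filled squares mark a called peak and open squares none. KMT9alpha is filled at 46 of the 47 genes shown, the exception being Pfas, and open H4K12me1 squares are the most frequent gaps.

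Pfas, which acts next to Gart in purine assembly, was the 1 gene of the list without a KMT9alpha promoter peak. It had KMT9beta peaks at its most upstream start (score 74.3) and at an internal start (score 143), and the nearest KMT9alpha peak lay 6.86 kb upstream. The genes without KMT9beta were Prps1 and Prps2, which make phosphoribosyl pyrophosphate, Ctps2, a CTP synthase like Ctps, Dtymk, the thymidylate kinase downstream of Tyms, and the folate enzymes Shmt2 and Mthfd1. Of these 6, Dtymk and Mthfd1 had an H4K12me1 peak nevertheless, with scores of 91.7 and 57.0 that overlapped their KMT9alpha peaks. The KMT9beta peaks nearest to Dtymk and Shmt2 lay 1.43 kb upstream and 1.04 kb downstream, just outside the window.

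Ctps and Ctps2 are paralogs of which Ctps carried all 3 libraries and Ctps2 KMT9alpha alone, although both scored 3100 for KMT9alpha. Ctps2, Prps1, Prps2 and the salvage gene Hprt lie on the X chromosome, where 4 of these 4 genes had KMT9alpha, 1 (Hprt, score 104) had KMT9beta and none had H4K12me1. Over all protein-coding genes of the X chromosome the shares were 30.5%, 6.75% and 0.422%. The inosine monophosphate dehydrogenases differed in the position of the highest H4K12me1 peak. At Impdh1 the peak with a score of 332 (percentile 95.7) lay over the most upstream start, with KMT9beta (score 339) and KMT9alpha (score 431). An H4K12me1 peak of Impdh1 with a lower score (57.7) lay 3891 to 4444 bp downstream at an internal coding start. There it overlapped the highest KMT9alpha promoter peak of Impdh1 (score 1560). At Impdh2 the only H4K12me1 peak lay inside the gene.

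The genes of each role with all 3 libraries and the highest H4K12me1 promoter scores were as follows. In purine synthesis they were Impdh1 and Atic (score 215), the enzyme of the closing steps. In pyrimidine nucleotide synthesis they were Nme1 (score 66.9) and Cmpk1 (score 61.3), both nucleotide kinases, and both stood low in the H4K12me1 list, at percentiles 13.5 and 5.87. The peak of Nme1 also touches the promoter of Gm20390. Dctd, the deoxycytidylate deaminase that feeds Tyms, was the 1 deoxynucleotide gene with all 3, at 68.2. All its promoter peaks lay 10594 to 11839 bp downstream of the most upstream coding start, at an internal coding start. In the folate group Mthfd2, a mitochondrial folate enzyme, had a score of 159. That peak also touches the promoter of Mob1a, so the genes cannot be told apart there. In salvage they were Uck2 (score 172) and Uckl1 (score 165), which phosphorylate uridine and cytidine. The overlapping peaks of all 3 libraries at Uckl1 lay 1080 to 4386 bp downstream of its most upstream coding start, near an internal coding start.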

How the data were processed

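ChIP-seq peak lists of KMT9alpha, KMT9beta and H4K12me1 were used, 1 library each, with 26227, 90473 and 60409 peaks as deposited. Per the labels' protocols reads were mapped to mm10 with STAR, while the submitters' processing notes name Bowtie2. Peak names begin with MACS, and the version, threshold and control behind them were not stated in the sources used here. The deposited score of each peak is the authors' value; it has no stated meaning, starts at 50 and was compared only within a list. Library depth is unknown.

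Peaks of the assembled chromosomes were retained (26146, 90349 and 60289), and 81, 124 and 120 on unplaced sequences were left out. Genes and starts came from GENCODE M21 on GRCm38.p6. Peaks were assigned with an overlap of 1 bp. The percentile of a gene is that of its highest promoter score among protein-coding genes with a promoter peak, ties at their middle rank. Motifs were searched in RefSeq promoter windows. Overlap steps were tested on simulated peaks. The members and lists were chosen with earlier results of these data known, and the stretch of chromosome 5 was taken from such results. Of the 38 pathway genes, those lacking a subunit and, per role, up to 2 with all 3 libraries and the highest H4K12me1 score are named; 1 item that this rule picks is not reported here. Python 3.11.15, numpy 2.4.6, scipy 1.17.1 and matplotlib 3.10.9 were used.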

Additional observations from a re-analysis of the deposited data

How the results depend on the processing

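Of 147 values recomputed for 21 counts and percentiles, 132 stayed within 1.5 times the count or within 10 percentile points and 15 moved. With peaks at or above the median score of each list, the 38 pathway genes had H4K12me1 at 14 (36.8%) and all 3 libraries at 12 (31.6%). In that setting H4K12me1 was found at 30.9% of protein-coding genes and all 3 at 5038 of them (23.1%). Both subunits without the mark were found at 17 pathway genes (44.7%), against 21% of protein-coding genes. Gene-body peaks of KMT9alpha and KMT9beta were left in 1 and 5 members, against 6.54% and 34.0% of protein-coding genes. With 26146 peaks taken from each list by score, the pathway genes had H4K12me1 at 12 (31.6%) and all 3 at 10 (26.3%). Protein-coding genes had them at 6315 (28.9%) and 4856 (22.2%). With the most upstream coding start alone, 2 members, Impdh2 and Ppat, had both subunits without the mark, against 16.2% of protein-coding genes. The median member percentile was 68.6 for KMT9alpha and 62.3 for KMT9beta by width, and 64.4 for KMT9beta with 5 kb windows. With 5 kb around each start left out, 5 members had KMT9beta in the gene body, against 39.7%. Umps lost KMT9beta in the first of these settings and in the second, and Impdh2 in the second. Rrm1 and Ppat kept their states under every promoter setting run, but most of these settings could not add a peak to them. Only the 5 kb windows and the starts of all annotated transcripts could do so. The nearest KMT9beta peak of Rrm1, 5285 bp from the start, lay just outside the 5 kb window. Asking for all 3 at the same start was added after seeing the data. No paired analysis was possible because each antibody has 1 library. Unknown depth limits every statement on a peak that was not called.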

Other observations

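Besides Cad, 7 protein-coding genes of like length were covered by both KMT9alpha and H4K12me1 peaks at least as much as Cad: Atg9b, Chpf2, Eif2b4, Emilin1, Kcnk3, Snx17 and Tmem214. They were found after the values had been seen, and all 7 lie in the stretch at 3 to 33 Mb of chromosome 5. None of them is a gene of nucleotide synthesis. Of the 222 protein-coding genes of the stretch, 64.9% had promoter peaks of all 3 libraries, against 35.5% of all protein-coding genes. The mean number of gene-body peaks among the 98 genes of the members' length range there was 3.05 for KMT9alpha, 1.63 for KMT9beta and 2.19 for H4K12me1, against 0.221, 1.29 and 0.851 elsewhere.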
